A study of Homo sapiens with 6 samples.

Results

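The genes described here are 10 transcription factors of the ETS family (ETS1, ETS2, ELF3, EHF, ELF1, ELK3, ETV4, ETV5, ERF and SPDEF), taken by symbol from the 60676 genes listed. They are 10 of the 28 human ETS family genes, and were picked with their levels in these libraries known, so their values, and the calls counted among them, are given as a description and not as a test. The study asked how cancer cells respond to a shortage of an amino acid. HT29 cells, an established human colon adenocarcinoma line labelled WT, which does not mean free of cancer mutations, spent 48 h in control medium (untreated), in medium without histidine (Hdepl) or in medium without tryptophan (Wdepl). Polyadenylated RNA of 2 libraries per condition was sequenced to between 46390819 and 64388876 reads assigned to genes per library. The histidine-free medium was made on an RPMI base and the tryptophan-free medium on a DMEM F-12 base, while the base of the control medium is named as RPMI for the proteomics of the study and not for the RNA-seq. Both depleted media received dialyzed, heat-inactivated fetal bovine serum, and the serum of the control medium is not named for the RNA-seq. Between Hdepl and Wdepl, and against untreated wherever the control had another base, the missing amino acid and the base cannot be told apart. The same holds for the serum, against untreated, wherever the control had another serum. No source says that the 2 libraries of a condition came from separate cultures, and the p-values below then measure only the spread between these libraries.

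ETS factors share a DNA-binding domain, the ETS domain, which recognises a core of GGAA (TTCC on the other strand). Many of them are end points of the RAS-ERK cascade: ERK phosphorylates ETS1, ETS2 and the ternary complex factors and raises their activity, and it drives the repressor ERF out of the nucleus. In the gut, ELF3 and EHF are factors of epithelial cells, SPDEF is required for goblet and Paneth cell maturation, and ETS1 is best known from lymphoid, endothelial and invasive tumour cells.

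The deposited values are read counts divided by a size factor for each library. Levels are given below as such normalized counts, scaled together over the 6 libraries. Differences are on the scale of log2(normalized count + 1), fitted by limma across all genes, with a standard error (SE). A gene is said to be called when its Benjamini-Hochberg adjusted p over all genes tested was under 0.05. Against untreated cells, 77.3% of 18288 genes tested were called after histidine depletion and 70.8% of 17960 after tryptophan depletion, and 78.3% of 18276 between the depletions, so a call on its own sets no gene apart.

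All 12 colon epithelial markers checked had reads in untreated and Wdepl libraries, and 11 in Hdepl, where CDX1 was at 0. In Hdepl against untreated cells 5 of the 12 were called higher and 7 lower, among the latter CEACAM5 (-2.61), TSPAN8 (-2.18), LGALS4 (-1.57) and CDX2 (-1.37), and among the former KRT20 (1.74) and KRT19 (1.55). In Wdepl 6 were called higher and 3 lower, and the 12 summed to 467927 to 497361 normalized counts in untreated, 587420 to 621003 in Hdepl and 645127 to 649418 in Wdepl libraries. Most markers of other cell types were near 0. CD45 (PTPRC) had at most 2 reads in a library, the B cell marker MS4A1 none, and 4 of 8 mast cell markers none. The 8 endothelial markers summed to 131 to 154 normalized counts in untreated, 59.0 to 66.9 in Hdepl and 162 to 172 in Wdepl libraries, below the level of each ETS gene described here. These sums hide single markers: of 3 endothelial markers tested in Hdepl, VWF was called higher, with 42.5 and 40.7 normalized counts against 7.65 and 3.98 in untreated libraries, and TEK (9.94 and 3.05 against 91.8 and 84.5) and PECAM1 lower, while CDH5 and KDR were at or near 0. The 8 fibroblast markers summed to 75.6 to 77.6, 35.2 to 43.8 and 59.8 to 72.3. The 10 leukocyte markers summed to 65023 to 69668, 12636 to 14671 and 38504 to 38511, nearly all of it LYZ. Among the others CD14 was called higher in Wdepl, with 380 and 367 against 104 and 119 in untreated libraries, and ITGAM had 103 and 96.7 in Hdepl against 65.6 and 76.6, a difference not called by DESeq2, in the fit on all 6 libraries, without Hdepl library 1 or without untreated library 1. Both were called lower than untreated in the other depletion, CD14 in Hdepl (log2 difference -0.96) and ITGAM in Wdepl (-3.18). VWF moved in Hdepl in the direction of ETS1, and the part of other cell types in the results was not tested. In bulk RNA, fewer cells with a transcript and less of it per cell cannot be told apart.

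Promoter sequences of 7 of the 10 genes, 14 promoters in all, were in the RefSeq table used (GRCh38.p14); ETS1, ETV4 and ETV5 were not matched. Shown are the 250 bases upstream of the RefSeq start for the 4 matched genes whose level differed at least 2-fold from untreated in a depletion, for ETS2 and ELK3 the first listed promoter. The ELF3 window lies within the GENCODE v44 span of the gene given below, not upstream of that span. Capitals mark GGAA or TTCC, the core letters of an ETS site on either strand.
ETS2 (chr21:38804933-38805182, plus strand): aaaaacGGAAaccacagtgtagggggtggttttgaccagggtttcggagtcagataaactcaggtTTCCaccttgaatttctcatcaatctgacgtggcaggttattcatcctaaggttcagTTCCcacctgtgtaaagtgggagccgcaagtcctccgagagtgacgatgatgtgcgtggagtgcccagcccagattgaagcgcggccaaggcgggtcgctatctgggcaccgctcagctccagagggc
ELK3 (chr12:96194125-96194374, plus strand): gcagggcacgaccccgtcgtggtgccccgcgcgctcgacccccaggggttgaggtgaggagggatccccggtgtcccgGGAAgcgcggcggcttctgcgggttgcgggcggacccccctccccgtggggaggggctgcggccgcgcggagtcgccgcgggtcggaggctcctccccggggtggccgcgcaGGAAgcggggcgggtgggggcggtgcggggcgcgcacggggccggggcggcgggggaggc
ELF3 (chr1:202010337-202010586, plus strand): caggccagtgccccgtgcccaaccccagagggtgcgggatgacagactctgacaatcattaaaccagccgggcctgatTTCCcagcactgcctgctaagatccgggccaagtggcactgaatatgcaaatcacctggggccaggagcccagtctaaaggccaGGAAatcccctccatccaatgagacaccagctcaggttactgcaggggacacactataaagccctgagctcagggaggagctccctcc
SPDEF (chr6:34556330-34556579, minus strand): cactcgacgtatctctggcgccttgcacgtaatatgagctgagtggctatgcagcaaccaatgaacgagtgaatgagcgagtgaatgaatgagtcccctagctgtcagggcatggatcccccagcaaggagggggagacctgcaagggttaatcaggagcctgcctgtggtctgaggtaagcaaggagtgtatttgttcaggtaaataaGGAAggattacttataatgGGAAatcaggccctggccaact
The ETS2 window holds 3 such cores and each of the others 2. A GGAA core on either strand was in 12 of the 14 promoters, and in 92.7% of 35116 promoters of the table over the same length, with a median of 3 matches. The longer core CCGGAA, searched on both strands and containing GGAA, was in 0 of the 14, against 14.5% of all promoters, and CCGGAAG in 0, against 8.52%. A match is a string of letters and not a bound site, and an absent string says only that these letters are not in this window.

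ETS1 showed the widest range of the 10 genes. Its normalized counts were 879 and 985 in the untreated libraries, 40547 and 38372 in Hdepl and 1709 and 1717 in Wdepl. The 3 conditions did not overlap, and the lowest Hdepl library lay above every other library by a wide margin. The mean was 42.4-fold higher in Hdepl and 1.84-fold higher in Wdepl than in untreated cells, differences of 5.41 (SE 0.056) and 0.87 (SE 0.06) on the log2 scale. Between the depletions ETS1 was 23.0-fold higher in Hdepl. By size of the log2 difference it was the 39th highest of 18288 genes after histidine depletion and the 2201st of 17960 after tryptophan depletion.

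ETS2, the closest relative of ETS1 and like it a direct ERK substrate, moved the other way. It had 24643 and 25656 normalized counts in untreated, 8291 and 8719.8 in Hdepl and 12833 and 12753 in Wdepl libraries. The untreated libraries were highest, the Hdepl libraries lowest, and no condition overlapped another. The mean in untreated cells was 2.96-fold that in Hdepl and 1.97-fold that in Wdepl, with log2 differences from untreated of -1.56 (SE 0.051) and -0.98 (SE 0.048). ETS1 lies at chr11:128458761-128587558, minus strand, and ETS2 at chr21:38805183-38824955, plus strand (GRCh38, GENCODE v44).

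Both genes have an ETS family neighbour on the chromosome, and both neighbours had at most 4 reads in a library. FLI1 lies 99.0 kb from ETS1 and had no read in 5 of the 6 libraries and 1 read in the other. ERG lies 143 kb from ETS2 and had 0 to 4 reads. In the 500 kb on each side of ETS1, a window chosen after values had been seen, 15 other genes were listed and 4 could be tested after histidine depletion. The noncoding LINC02725 had 0 normalized counts in untreated and Wdepl libraries and 173 and 200 in Hdepl libraries. TP53AIP1 was higher by 2.50 (limma adjusted p = 6.58e-10), and KCNJ5-AS1 and ARHGAP32 were lower, by -1.70 (adjusted p = 1.45e-08) and -0.83 (adjusted p = 8.32e-14).

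ETV4 and ETV5, of the PEA3 subfamily that is induced by receptor tyrosine kinase and FGF signals, were lower in Hdepl. ETV4 had 7814 and 8152 normalized counts in untreated, 2223 and 2602 in Hdepl and 8198 and 8045 in Wdepl libraries. Its Hdepl libraries stood below all others, whereas the Wdepl libraries lay within or just above the untreated range. The mean of untreated cells was 3.31-fold that of Hdepl, a log2 difference of -1.72 (SE 0.06), and the difference of Wdepl from untreated was 0.02 (SE 0.047), the only one of the 20 differences from untreated that was not called.

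ETV5 had 4243 and 4252 in untreated, 3012 and 3107 in Hdepl and 5952 and 5847 in Wdepl libraries. It was lowest in Hdepl and highest in Wdepl, without overlap, and its log2 differences from untreated had opposite signs, -0.46 (SE 0.051) and 0.47 (SE 0.047). ETV4 lies at chr17:43527844-43579620, minus strand, and ETV5 at chr3:186046314-186110318, minus strand. ETV1, the PEA3 member outside the 10 genes, had a different pattern again. Its normalized counts were 538 and 478 in untreated, 914 and 976 in Hdepl and 67.2 and 57.7 in Wdepl libraries. ETV1 rose by 0.90 (adjusted p = 1.55e-10) after histidine depletion and fell after tryptophan depletion, -3.01 (adjusted p = 4.40e-48) by limma.

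ELK3, a ternary complex factor that binds with SRF at serum response elements and represses until ERK phosphorylates it, was highest in Hdepl. Its normalized counts were 621 and 632 in untreated, 1893 and 1841 in Hdepl and 496 and 549 in Wdepl libraries. The Hdepl mean was 2.98-fold that of untreated cells (log2 difference 1.58, SE 0.064), and the Wdepl libraries lay slightly below the untreated ones (log2 difference -0.27, SE 0.078), a difference not called without Wdepl library 1 (-0.19) or under quantile normalization (-0.15). Of the ELK3 exon length, 4.50% is shared with a gene on the opposite strand. Of the other ternary complex factors, ELK4 rose in both depletions, by 0.52 (adjusted p = 2.08e-09) and 0.74 (adjusted p = 2.86e-31), and ELK1 was lower in both, by -0.18 (adjusted p = 3.32e-03) and -0.21 (adjusted p = 5.68e-05) by limma. The Hdepl call of ELK1 was lost by limma without trend and without Hdepl library 2.

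ERF, a repressor that ERK inactivates by export from the nucleus, was lower in both depletions. It had 7799 and 8859 normalized counts in untreated, 5994 and 6192 in Hdepl and 6885 and 6917 in Wdepl libraries. The conditions did not overlap, although the untreated libraries differed from each other more than those of any other condition. The log2 differences were -0.44 (SE 0.056) and -0.28 (SE 0.048). The latter was not called by limma without trend and ranged from -0.37 to -0.18 over 14 alternatives. ETV3, the other expressed repressor of the ERF subfamily, rose instead: it had 1911 and 1917 in untreated, 4800.3 and 4782 in Hdepl and 2143 and 2107 in Wdepl libraries, 1.33 (adjusted p = 2.90e-17) after histidine depletion. ELK3 lies at chr12:96194375-96269824, plus strand, and ERF at chr19:42247569-42255128, minus strand, where 5.54% of its exon length is shared with a gene on the same strand. The part shared on the opposite strand is 2.25% for ETS2, 1.94% for ETV4 and 3.73% for ELK4, and on the same strand 2.84% for ETV5.

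ELF1, a broadly expressed activator of housekeeping and blood cell genes, was higher in both depletions. It had 8238 and 8701 normalized counts in untreated, 15462 and 15282 in Hdepl and 12086 and 12079 in Wdepl libraries. The conditions were separate, with Wdepl between the other two, and the log2 differences from untreated were 0.87 (SE 0.051) and 0.51 (SE 0.047). Its paralogs differed from it: ELF4 fell by 0.50 (adjusted p = 2.14e-09) after histidine depletion and rose by 0.33 (adjusted p = 1.62e-10) after tryptophan depletion. In the main fit ELF2 differed by no more than 0.14 from untreated in either. Its Hdepl difference was 0.076 without untreated library 1 and 0.21 without untreated library 2. The Hdepl call of ELF2 was lost by DESeq2, under quantile normalization, by limma without trend and without a filter. ELF1 lies at chr13:40931924-41061440, minus strand.

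The epithelial factors ELF3 and EHF lay near their untreated levels in Hdepl. ELF3, which regulates epithelial differentiation genes and is induced by inflammatory signals, had 7707 and 8128 normalized counts in untreated, 8386 and 8937 in Hdepl and 17352 and 17541 in Wdepl libraries. The Wdepl libraries stood apart, at 2.20-fold the untreated mean (log2 difference 1.13, SE 0.047). The Hdepl libraries lay just above the untreated ones (log2 difference 0.14, SE 0.052), a difference whose sign turned to -0.11 under quantile normalization and whose call was lost without Hdepl library 1 (0.18), without Hdepl library 2 (0.096) and without untreated library 1 (0.097), as well as without a filter and by limma without trend.

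EHF, which is restricted to epithelia, had 16457 and 16715 in untreated, 19152 and 18817 in Hdepl and 14356 and 14225 in Wdepl libraries. The 3 conditions did not overlap, but lay within a narrow range. It was slightly higher in Hdepl (log2 difference 0.20, SE 0.051; -0.072 under quantile normalization, and not called without Hdepl library 1, at 0.19) and lower in Wdepl (log2 difference -0.22, SE 0.048). ELF5, its neighbour 95.9 kb away on chromosome 11 and the third factor of the subfamily, was lower in Hdepl, 38.9 and 37.6 against 98.4 and 114 in untreated libraries, -1.44 (adjusted p = 5.45e-07). ELF3 lies at chr1:202007945-202017183, plus strand, where 9.24% of its exon length is shared with a gene on the same strand and 9.24% with ELF3-AS1 on the other, and EHF at chr11:34621093-34663288, plus strand.

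SPDEF had the largest fall of the 10 genes after histidine depletion. Its normalized counts were 1479 and 1796 in untreated, 323 and 381 in Hdepl and 2182 and 2226 in Wdepl libraries. No condition overlapped another, with Hdepl lowest and Wdepl highest. The untreated mean was 4.66-fold and the Wdepl mean 6.27-fold that of Hdepl, and the log2 differences from untreated were -2.21 (SE 0.089) and 0.43 (SE 0.056). By the log2 difference it was the 502nd lowest of 18288 genes after histidine depletion. SPDEF lies at chr6:34537802-34556333, minus strand, and no exon of another gene overlaps its own.

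**Figure D1:**
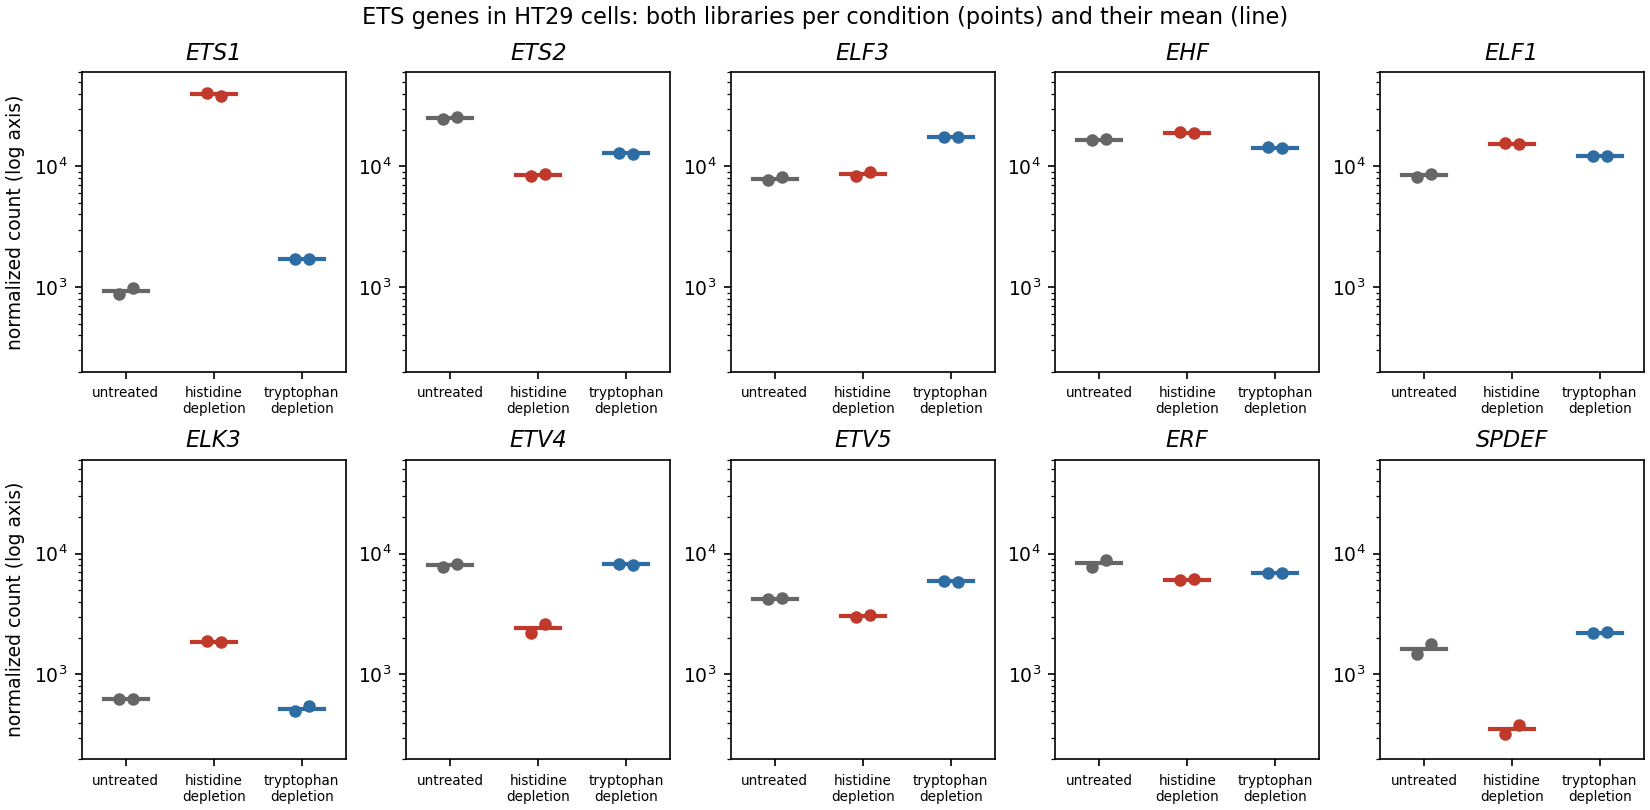
Normalized counts on a log axis of the 10 ETS genes in the 2 untreated, 2 Hdepl and 2 Wdepl libraries (points), with the mean of each condition as a line. ETS1 rises from 932 to 39460 on average in Hdepl, while SPDEF falls from 1638 to 352, and the 2 libraries of a condition lie close together.

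Of the 10 genes, 5 were called higher and 5 lower after histidine depletion, where 39.1% of all genes were called higher and 38.2% lower. After tryptophan depletion 5 were called higher, 4 lower and ETV4 neither, beside 36.1% and 34.8% of all genes. In Hdepl against Wdepl 4 were called higher and 6 lower, beside 39.9% and 38.4%. Their median log2 differences were -0.15, 0.22 and -0.38, against 0.01, 0.01 and 0.02 over all genes. Since the members were chosen on these values, the counts describe them only. The depletions share the untreated libraries, so their differences are set side by side without a measure of likeness. ELK3 and EHF were higher in Hdepl and lower in Wdepl than in untreated cells, ETV5 and SPDEF the reverse, and ETS1, ELF1 and ELF3 were higher and ETS2 and ERF lower in both, with ELF3 and EHF in Hdepl subject to the scaling given above.

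Set against each other, the depletions differed most in ETS1, SPDEF, ELK3 and ETV4. SPDEF was lower in Hdepl than in Wdepl by -2.65 (SE 0.072) and ETV4 by -1.76 (SE 0.057), the latter a 3.37-fold gap of the means. ELK3 was 3.57-fold higher in Hdepl (log2 difference 1.84, SE 0.059). The gaps were smaller for ELF3 (2.01-fold), ETV5 (1.93-fold) and ETS2 (1.50-fold), all higher in Wdepl, and smallest for ELF1, EHF and ERF, with log2 differences of 0.35, 0.41 and -0.18. None of the 10 genes changed the sign of this difference in any of the 15 alternatives.

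Across the whole family, 21 of 28 genes had enough reads to be tested in every comparison. After histidine depletion 11 were called higher and 8 lower (39.1% and 38.2% of all genes), after tryptophan depletion 10 and 7 (36.1% and 34.8%), and in Hdepl against Wdepl 9 and 10 (39.9% and 38.4%). With a log2 difference of at least 1 as well, the counts were 3 and 4 (16.4% and 16.1% of all genes), 1 and 1 (10.0% and 10.4%), and 4 and 4 (16.4% and 15.7%). Among the other 18 genes, 3 reached that size in some comparison: ETV1, ETV3 and ELF5. Between the depletions ETV1 was higher in Hdepl by 3.90 (adjusted p = 1.15e-11), ETV3 by 1.17 (adjusted p = 1.66e-11), and ELF5 was lower by -1.20 (adjusted p = 1.04e-04), all by limma.

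GABPA, the family member that pairs with GABPB and controls mitochondrial and ribosomal genes, rose by 0.78 (adjusted p = 2.04e-11) after histidine depletion, and the repressor ETV6 by 0.41 (adjusted p = 5.66e-08). ETV2, a factor of blood and vessel precursors with 45 to 89 reads in each library, and ETV7 were not called against untreated cells. GABPA shares 12.05% of its exon length with ATP5PF on the opposite strand. Several other family members, some of them known from blood or vessel cells, had few reads. ERG had at most 4 and FLI1 at most 1, SPI1 (PU.1) had 17 and 8 reads in Hdepl and 0 or 1 in the other libraries, SPIB at most 6, FEV and ETV3L at most 1, and SPIC was at 0 throughout, each below the minimum for testing.

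**Figure D2:**
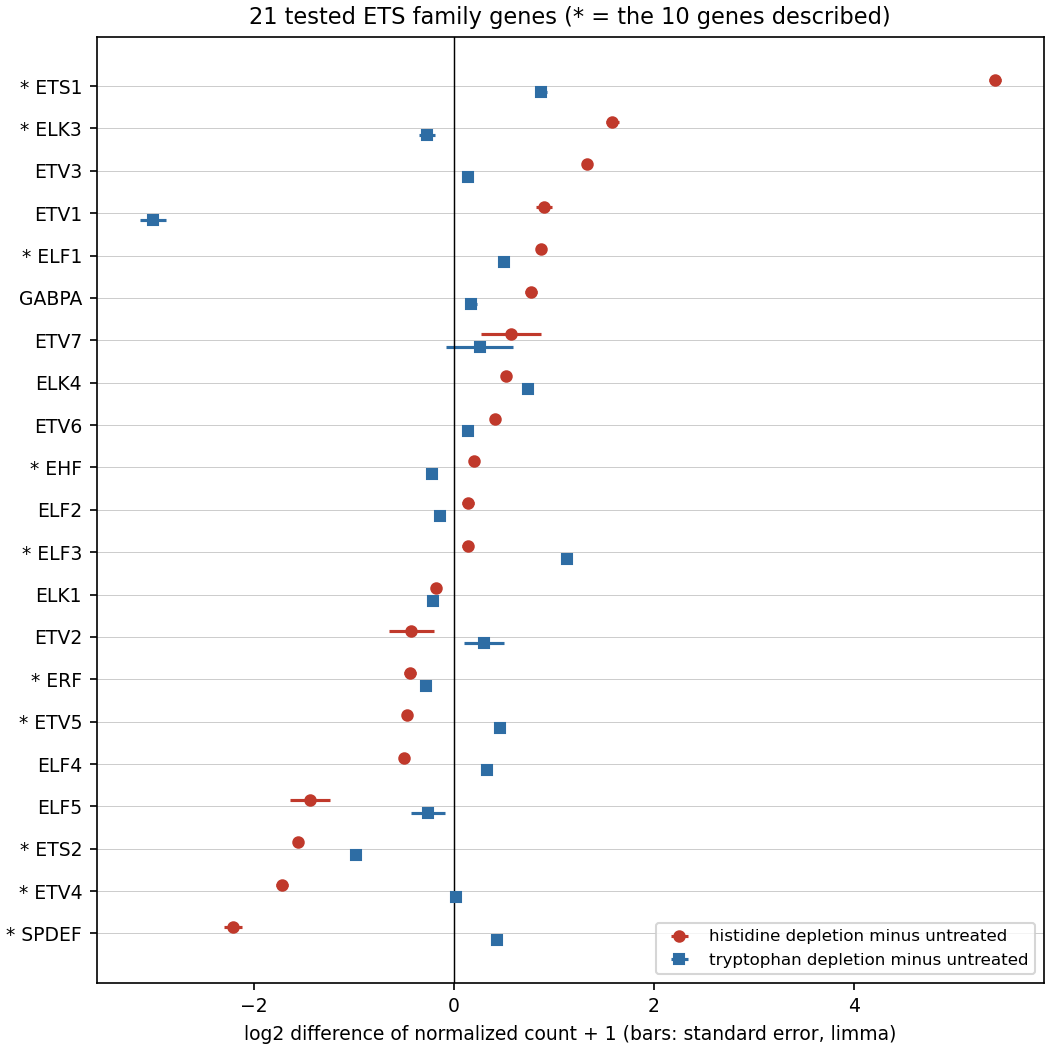
Log2 differences of Hdepl (circles) and Wdepl (squares) from untreated cells for the 21 tested ETS family genes, with standard errors, ordered by the difference in Hdepl; stars mark the 10 genes described. ETS1 lies at 5.41 in Hdepl and SPDEF at -2.21, and ETV1 is the lowest gene in Wdepl at -3.01. The small Hdepl differences of ELF3 and EHF change sign under quantile normalization.

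To compare levels between genes, reads were divided by the length of each gene's merged exons and scaled to the same total over all genes in each library. On this per-length scale (mean ± SD, n = 2) ETS2 led in untreated cells at 372 ± 10.8, followed by ERF (188 ± 17.0) and EHF (185 ± 2.10), whose ranges overlapped, then ETV4, ELF1, ELF3, SPDEF and ETV5. ELK3 (9.94 ± 0.125) and ETS1 (9.60 ± 0.776) were lowest and overlapped each other. In Hdepl, ETS1 moved from the bottom of the order to the top.

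There its level was 381 ± 14.3, above ELF1 (239 ± 1.60) and EHF (198 ± 2.16), with ETS2 at 118 ± 4.39 and SPDEF last at 12.7 ± 1.50. In Wdepl the first 6 genes lay close, from ELF1 (194 ± 0.309) through ETS2, ELF3, ETV4 and EHF to ERF (150.4 ± 0.319), and ETS1 lay at 17.1 ± 0.0322. No neighbouring genes overlapped in either depletion. Divided by the length of the canonical transcript instead, a choice made after the data had been seen, ETS1 still led in Hdepl (300.4) and ETS2 in untreated cells (286), but ELF3, whose merged exons measure 7186 bases and whose canonical transcript 3104, led in Wdepl (231).

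The summed per-length level of all 28 family genes differed little between libraries while its make-up changed. It was 1558 and 1647 in untreated, 1617 and 1617 in Hdepl and 1557 and 1552 in Wdepl libraries, and the 10 genes made up 77.1% to 79.4% of it. The spread between the untreated libraries covered the values of Hdepl, and the Wdepl libraries lay just below it. By canonical transcript length the Wdepl libraries, at 1231 and 1232, lay above the untreated ones, at 1188 and 1226, instead. ETS1 made up 0.58% and 0.62% of the sum in untreated, 24.2% and 23.0% in Hdepl and 1.10% and 1.10% in Wdepl libraries. ETS2 went from 23.4% and 23.1% to 7.11% and 7.50% in Hdepl and to 11.8% and 11.8% in Wdepl. The share of ELF3 was 5.07% and 5.06% in untreated, 4.98% and 5.32% in Hdepl and 11.1% and 11.2% in Wdepl libraries, and SPDEF went from 3.65% and 4.20% to 0.72% and 0.85% in Hdepl. The share of ELF3 depends on the length used: divided by canonical transcript length it averaged 8.82% in untreated, 8.94% in Hdepl and 18.7% in Wdepl libraries.

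**Figure D3:**
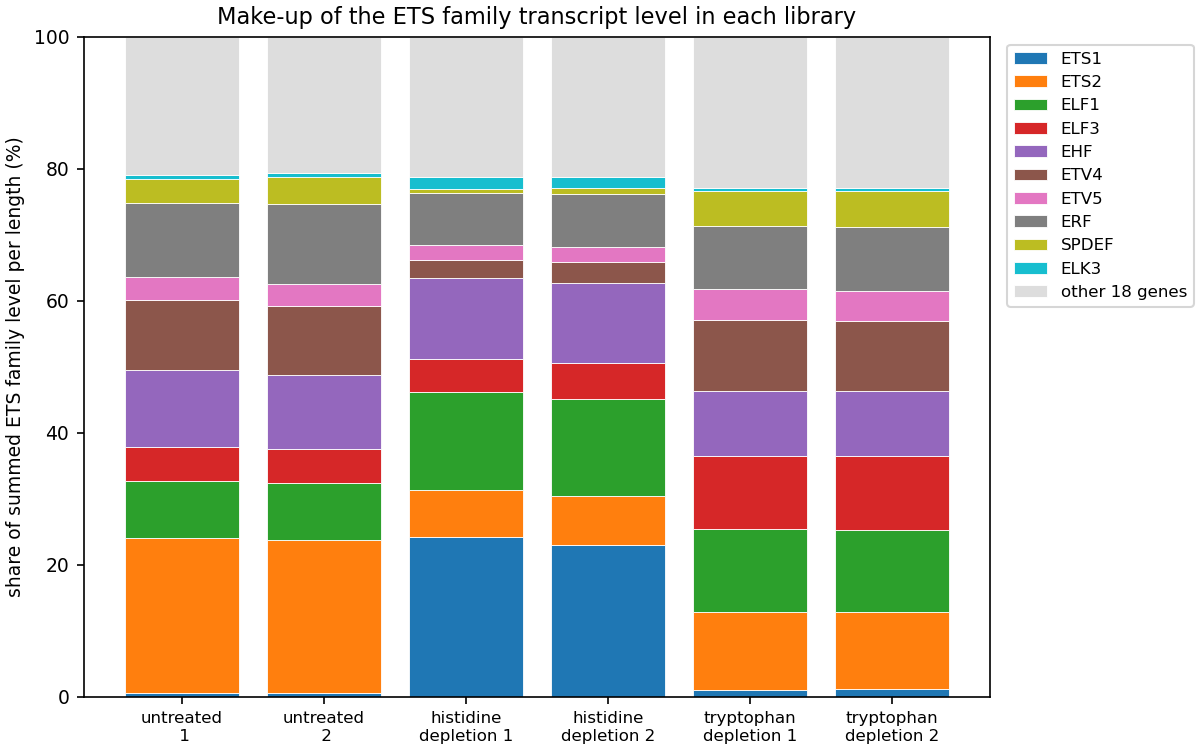
Share of each ETS gene in the summed per-length level of the 28 family genes, in percent, for each of the 6 libraries; the light grey top segment holds the other 18 genes. ETS2 holds 23.2% of untreated cells' family level on average and ETS1 23.6% in Hdepl, while the 10 genes together stay between 77.1% and 79.4%; the share of ELF3 in Wdepl, 11.1% here, is 18.7% by canonical transcript length.

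As the depleted amino acids must be read from codons, the coding sequences of the canonical transcripts were also counted, a property independent of the RNA levels. Histidine codons made up a median of 2.42% of codons in the 10 genes and 2.43% over 19755 coding sequences, and tryptophan codons 1.52% and 1.13%. Over all 28 family genes the medians were 2.59% for histidine and 1.69% for tryptophan. ETS1 has 9 histidine and 10 tryptophan codons among 485, and ETS2 has 7 and 11 among 469. SPDEF has 9 histidine codons among 335, of which 9 are CAC and 0 CAT, and 11 tryptophan codons. EHF, with 11 tryptophan codons among 300, lies at the 98.1 percentile of all coding sequences for tryptophan, and ELF1, with 3 among 619, at the 17.2 percentile.

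Genes around the ETS factors were followed in 7 lists, whose counts and medians are to be read beside those over all genes given above. The cascade that feeds ETS factors was followed in 15 genes of the RAS-ERK pathway. After histidine depletion 8 were called higher and 6 lower, with a median log2 difference of 0.11, and after tryptophan depletion 7 and 3, with a median of 0.09. The 8 became 5 without Hdepl library 2 or under quantile normalization and 4 by limma without trend, and the 3 became 5 without untreated library 1 and 6 under quantile normalization. MAP2K1, which encodes the kinase MEK1, rose by 1.37 (adjusted p = 7.98e-18), while MAPK3, which encodes ERK1, was lower, -1.17 (adjusted p = 1.11e-14) by limma. In Wdepl, HRAS was lower, -0.76 (adjusted p = 1.37e-27), and the exchange factor SOS1 higher, 0.58 (adjusted p = 2.28e-22). Both moved the other way in Hdepl, HRAS by 0.28 (adjusted p = 1.10e-04) and SOS1 by -0.67 (adjusted p = 7.68e-11). The Hdepl call of HRAS was lost by limma without trend.

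Of 14 tested genes that ERK activity is known to induce, 9 were called higher and 3 lower after histidine depletion (median 0.74), and 5 and 7 after tryptophan depletion (median -0.09), where the 5 became 2 without Wdepl library 2. The phosphatase gene DUSP5 had 1155 and 1199.5 normalized counts in untreated, 9526 and 9207 in Hdepl and 4190.5 and 4487 in Wdepl libraries and rose in both depletions (limma adjusted p = 1.19e-23 and 1.45e-69). FOSL1 rose by 2.79 (adjusted p = 1.40e-23) and EPHA2 by 2.20 (adjusted p = 6.51e-21) in Hdepl. Of the feedback inhibitors, SPRY2 was lower in both depletions, by -0.66 (adjusted p = 7.42e-10) in Hdepl and -0.90 (adjusted p = 2.36e-29) in Wdepl, and SPRED3 higher in both, by 1.48 (adjusted p = 5.15e-12) and 1.80 (adjusted p = 1.56e-37). SPRY1 was lower in Hdepl, -1.32 (adjusted p = 2.66e-14). By limma DUSP6 (0.89), SPRED2 (0.60) and SPRY4 (0.21) were called higher in Hdepl, and DUSP4 (-0.26) lower. In Wdepl DUSP6 (-0.29), SPRY4 (-0.29) and DUSP4 (-0.24) were called lower. Of 16 immediate early genes, several of which carry ternary complex factor sites, 13 were called higher and 1 lower in Hdepl (median 1.26), and 6 and 2 in Wdepl (median 0.15). The count of 1 became 2 without untreated library 2, and that of 2 in Wdepl became 4 without untreated library 1 and 1 without untreated library 2. CCN1 rose by 5.51 (adjusted p = 3.46e-28), NR4A3 by 4.59 (adjusted p = 1.86e-15), FOSB by 3.12 (adjusted p = 5.07e-23) and KLF6 by 0.88 (adjusted p = 3.36e-14) in Hdepl, while in Wdepl KLF6 was lower, -1.03 (adjusted p = 1.62e-44). The 1 gene called lower in Hdepl was FOS, -0.34 (limma adjusted p = 2.12e-05), and EGR1 (-0.10) and EGR4 (0.36) were not called.

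Among 18 cofactors and regulators of ETS proteins, 12 were called higher and 3 lower in Hdepl (median 0.38), and 11 and 4 in Wdepl (median 0.27). The 3 became 1 without Hdepl library 1 or by limma without trend and 5 under quantile normalization, and the 4 became 2 by limma without trend. SRF, the partner of ELK3 at serum response elements, had 3432 and 3772 normalized counts in untreated, 12215 and 12527 in Hdepl and 4322 and 4441 in Wdepl libraries, 1.79 (adjusted p = 1.86e-19) and 0.28 (adjusted p = 1.95e-07). The Hdepl libraries held the highest values. SP100, which binds ETS1, was higher in both, 1.25 (adjusted p = 8.62e-17) and 1.10 (adjusted p = 5.71e-46). The coactivator CREBBP rose by 1.08 (adjusted p = 8.10e-15) in Hdepl.

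Proteases and their inhibitors with described ETS sites were followed as candidate ETS1 and PEA3 targets. Of 10 tested, 5 were called higher and 2 lower in Hdepl (median 0.26), and 4 and 2 in Wdepl (median 0.07), where the 4 became 2 without Wdepl library 2 or by DESeq2. The matrilysin gene MMP7 rose by 1.91 (adjusted p = 2.27e-20) in Hdepl and PLAU, the urokinase gene, by 1.83 (adjusted p = 2.37e-13), while MMP14 was lower, -1.58 (adjusted p = 1.26e-12). MMP9 was at 0 in all libraries.

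Of 14 tested goblet cell genes, the programme SPDEF is known for, 0 were called higher and 13 lower after histidine depletion, with a median of -1.99. After tryptophan depletion 3 were higher and 10 lower, with a median of -0.41, and in Hdepl against Wdepl 0 were higher and 10 lower. The mucin gene MUC2 had 762 and 728 normalized counts in untreated, 109 and 178 in Hdepl and 662 and 537 in Wdepl libraries, and ERN2, an endoplasmic reticulum stress sensor of mucous cells, had 1241 and 1309, 177 and 195, and 1166 and 1122 in the same order. Both were lower in Hdepl than in Wdepl, -2.09 (adjusted p = 5.32e-07) and -2.61 (adjusted p = 2.02e-11), as SPDEF was. The 12 colon epithelial markers were mixed in Hdepl, with 7 called lower, CDX2, LGALS4, CEACAM5 and TSPAN8 among them, and 5 higher, KRT20 and KRT19 among them, and their part in the result was not tested. SPINK4 was low in both depletions, with 9.03 and 29.5 in Hdepl and 20.3 and 11.9 in Wdepl against 638 and 639 in untreated libraries. ATOH1, a factor upstream in the secretory lineage, had 0.903 and 17.3 in Hdepl and 16.0 and 13.7 in Wdepl against 193 and 245 in untreated libraries. In Wdepl, where SPDEF was above untreated, AGR2 and BCAS1 were higher, 1.07 (adjusted p = 5.75e-42) and 1.42 (adjusted p = 2.89e-61).

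Of 13 tested epithelial genes linked to ELF3 and EHF, 7 were called higher and 4 lower in Hdepl (median 0.33), and 8 and 4 in Wdepl (median 0.33). LCN2, an inflammation-induced gene of epithelial cells, had 12419.8 and 13147 normalized counts in untreated, 5826 and 6448 in Hdepl and 92965 and 91496 in Wdepl libraries. It was lower in Hdepl, -1.05 (adjusted p = 7.94e-15), and higher in Wdepl, 2.84 (adjusted p = 1.08e-91). KRT20, a differentiation keratin, rose in both, 1.74 (adjusted p = 2.08e-19) and 2.38 (adjusted p = 7.07e-85). PTGS2 was higher in Hdepl, 1.04 (adjusted p = 2.33e-11), and lower in Wdepl, -1.80 (adjusted p = 8.28e-31). ANG was lower in Hdepl, -1.90 (adjusted p = 4.91e-08), and in Wdepl, -0.45 (adjusted p = 1.71e-02), the latter not called by DESeq2, in the fit on all 6 libraries or without either Wdepl library or untreated library 2.

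**Figure D4:**
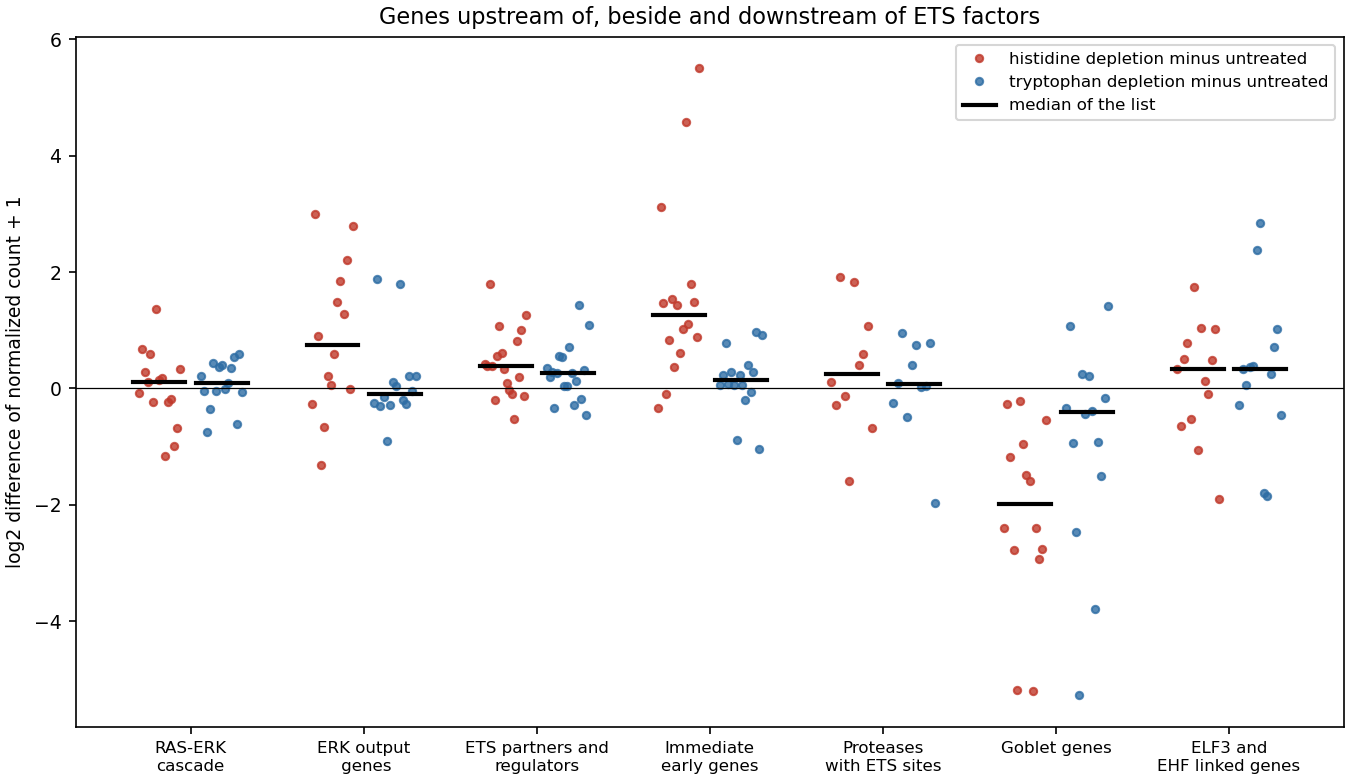
Log2 differences of Hdepl (red) and Wdepl (blue) from untreated cells for the tested genes of 7 lists around the ETS factors; each point is a gene and black lines are list medians. The immediate early genes have a median of 1.26 in Hdepl and 0.15 in Wdepl, and the goblet genes -1.99 and -0.41.

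The genes nearest in pattern were sought for ETS1 and SPDEF among 11394 protein-coding genes, by the Euclidean distance in the pair of log2 differences from untreated cells. For ETS1 these were CCN1, a matricellular protein gene (5.51 in Hdepl and 0.92 in Wdepl, distance 0.10), and the histone genes H2BC4 (5.57 and 1.03, distance 0.22) and H2BC6 (5.55 and 1.16, distance 0.32). For SPDEF they were MSLN (-2.18 and 0.43, distance 0.03), KCTD17 (-2.26 and 0.40, distance 0.06) and the receptor gene ERBB3 (-2.18 and 0.37, distance 0.07). The values of H2BC4 and H2BC6 are uncertain, since only polyadenylated RNA was sequenced and near-identical histone genes can share reads. The distances rest on 3 conditions and describe likeness of pattern only.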

How the data were processed

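Per the labels and the study's methods, the authors made stranded mRNA libraries with adapters carrying molecular identifiers, aligned paired reads with STAR 2.7.10a to GRCh38, counted exonic reads per gene with HTSeq 2.0.5 and divided the counts by DESeq2 size factors. The deposited signal is thus read counts per gene over a library size factor, in separate tables for the depletions that share the untreated libraries; whether counting used strand or identifiers is not given in the sources used here. All values above 0 were whole multiples of the value of 1 read (100% of values, tolerance 0.001), so reads were recovered and scaled together over the 6 libraries by median-of-ratios size factors for levels and for Hdepl against Wdepl.

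Ensembl identifiers were matched to GENCODE v44 (60357 of 60676). Exon lengths, exon overlaps and gene positions are also from v44, while the study's methods name an earlier GENCODE release for the counting. Genes with a mean normalized count of at least 10 in the libraries compared were fitted with limma 3.58.1 (R 4.3.3, trend) on log2(normalized count + 1), two-sided, with Benjamini-Hochberg adjustment over all genes tested. Comparisons with untreated cells stayed within a table. Per-length levels are descriptions. The script was tested on simulated data. Alternatives were pseudocounts of 0.5 and 8, filters of 50 and none, limma without trend, quantile normalization, edgeR 4.0.16 and DESeq2 1.42.0 on recovered reads, a fit on all 6 libraries, a replicate block, a log2 limit of 1 and leaving out each library.

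The members and gene lists were chosen with earlier results of these data known. Named are all 10 members, other ETS genes called with an absolute log2 difference of at least 1, and from each list up to 3 called genes per comparison with the largest differences and a mean of at least 100 in the higher group, of which the text prints a part; ETS relatives, list genes and neighbours of ETS1 named beyond this were chosen after their values were seen. Protein sequences were not used here, and some genes that the rule names are not reported here.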

Additional observations from a re-analysis of the deposited data

How the results depend on the processing

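With 2 libraries per condition, small differences rest on few values, and reads shared by overlapping genes could not be separated. No alternative moved the median of all genes by more than 0.1 on the log2 scale. For the 10 genes, 417 of 430 recomputed differences kept direction and side of the threshold, 9 kept direction but lost the call, and 4 changed sign. Under quantile normalization the Hdepl difference from untreated was -0.11 for ELF3 and -0.072 for EHF, and the uncalled Wdepl difference of ETV4 was -0.064 there and -0.013 without untreated library 1. Lost calls concerned ELF3 and EHF in Hdepl and ELK3 and ERF in Wdepl. For the other ETS genes 436 of 470 kept both, 26 lost and 3 gained a call, and 5 uncalled differences changed sign. For 114 genes, those of the 7 lists, the colon epithelial markers and other markers named, 4532 of 4768 kept both, and 119 lost and 69 gained a call. A further 48 changed sign, 6 of them called in the main analysis, not all of which are named here. Under quantile normalization the Hdepl differences of ARAF (-0.065), MAP2K2 (-0.037) and EPCAM (-0.077), each called higher in the main analysis, turned, as did the uncalled one of SPRED1 (-0.18). The cause was not tested.

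Requiring a log2 difference of at least 1, which by construction keeps fewer genes, left 3 family genes higher and 4 lower in Hdepl, 1 and 1 in Wdepl, and 4 and 4 in Hdepl against Wdepl. Each of the other alternatives gave family counts within 1.5 times those in the report. For the 7 lists and the colon epithelial markers, 688 recomputed counts, an analysis added after the data had been seen and run without the log2 limit, gave 667 within 1.5 times the reported count. By limma without trend, 4 RAS-ERK genes were higher and 1 partner lower in Hdepl, and 2 partners and 1 immediate early gene lower in Wdepl. Quantile normalization gave 5 RAS-ERK genes higher, 5 partners lower and 2 immediate early genes lower in Hdepl, 6 RAS-ERK genes lower in Wdepl, and 4 ERK output genes lower in Hdepl against Wdepl. The replicate block gave 2 immediate early genes lower in Hdepl. DESeq2 gave 2 proteases higher and 1 immediate early gene lower in Wdepl, as did no filter for the latter (1). Leaving out each library in turn gave, in Hdepl, 5 to 8 RAS-ERK genes higher, 1 to 4 partners lower and 1 to 2 immediate early genes lower, and in Wdepl 3 to 5 RAS-ERK genes lower, 2 to 6 ERK output genes higher, 1 to 4 immediate early genes lower and 2 to 5 proteases higher.

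With canonical transcript length, added after the data had been seen, the summed family level was 1207 in untreated, 1221 in Hdepl and 1232 in Wdepl cells, and the shares were 24.6% for ETS1 in Hdepl, 23.7% for ETS2 in untreated and 18.7% for ELF3 in Wdepl, since the divisor differs.

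Same-numbered libraries deviated from their group means with correlations of 0.12 (untreated and Hdepl), -0.05 (untreated and Wdepl) and -0.10 (Hdepl and Wdepl) over 12480 genes. With 2 libraries per condition these values cannot show whether same-numbered libraries were made together, and no source used here says so. With the replicate block the family counts were 11 higher and 8 lower in Hdepl, 10 and 7 in Wdepl, and 9 and 10 between the depletions. With crossed numbers, added later, the last were also 9 and 10.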
